A study of Mus musculus with 12 samples.

Results

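Skeletal muscle fibres form and repair when myoblasts, the progeny of satellite cells, adhere to each other and merge their plasma membranes. In the mouse this merging depends on myomaker and myomixer, muscle-specific membrane proteins whose loss leaves differentiated cells that do not fuse. Ferlins and caveolin-3 act at the membrane during fusion and repair, and immunoglobulin-type surface proteins hold the cells together and signal towards differentiation before fusion begins. The 9 myoblast fusion genes described here were taken by name, as they are spelt in the files, out of 22310 gene symbols. They are Tmem8c (the older symbol of Mymk, myomaker), Gm7325 (the older symbol of Mymx, myomixer), Dysf (dysferlin), Myof (myoferlin), Cav3 (caveolin-3), Kirrel, Cdon, Boc and Neo1 (neogenin).

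The genes were measured by RNA-seq in 12 libraries of satellite cells, the resident muscle stem cells, from the hindlimb muscles of C57BL/6 mice. The 4 groups of 3 libraries each were old Hoxa9 knock-out mice (22 to 28 months), old wild-type mice (22 to 28 months), young Hoxa9 knock-out mice (3 to 4 months) and young wild-type mice (3 to 4 months). In all 4 groups the cells were collected 3 days after injection of 50 µl of 1.2% BaCl2, a muscle toxin, spread over approximately 20 sites, so no group was uninjured. The sources used here do not say how the Hoxa9 allele was built, in which cells it acts or whether a library holds the cells of 1 animal, and p-values therefore measure the spread between these samples only.

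The counted gene reads ranged from 4193433 to 20337015 per library, and all 9 fusion genes passed the filter on low counts, with between 46 reads (Cav3) and 10486 reads (Cdon) in a library. Levels are given as CPM, read counts relative to the scaled library size, as mean ± SD of 3 libraries. Hoxa9 averaged 5.80 ± 1.08 CPM in old knockout and 17.7 ± 4.27 CPM in old wild-type libraries (log2 fold change -1.63, edgeR quasi-likelihood adjusted p = 0.00235), and 6.40 ± 0.848 CPM in young knockout and 10.3 ± 2.01 CPM in young wild-type libraries (adjusted p = 0.0671). Reads of Hoxa9 were thus present in all knockout libraries, and the deleted part of the gene is not stated in these sources. The 10 satellite cell markers were detected in every library, with a summed level of 4257 to 7251 CPM. Several libraries stood apart. Old knockout libraries 2 and 3 held 125 and 150.5 CPM of the Y-linked Ddx3y, against 0 to 5.11 CPM in the other libraries. Old knockout library 3 and old wild-type library 2 had 70.8% and 57.1% of their uniquely aligned reads outside genes, and Lars2 took 25.0% of the gene reads of old knockout library 3. Lars2 ran with genotype, at 0.484% to 25.0% of the gene reads in the 6 knockout libraries and 0.0258% to 0.11% in the 6 wild-type libraries. The rank correlation of a library's centred levels with the GC content of the genes was -0.525 to -0.125 in the 6 knockout libraries and 0.226 to 0.471 in the 6 wild-type libraries. Knockout and GC dependence therefore cannot be told apart by comparing libraries, and fold changes fitted with offsets for GC content and length are given below where they end the call of a named gene.

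RefSeq promoter windows (build GRCm38.p6) were matched for 6 of the 9 genes, in 7 windows of 250 bases before the transcript start. Those of Cdon and Neo1 are shown because these genes had the most similar level profiles of any pair of the 9. Those of Dysf are shown because it was called in the knockout comparison, and that of Cav3 because it alone held an E-box, CANNTG, the motif bound by myogenic helix-loop-helix factors. Both strands were searched, bases that match CANNTG are in capitals, and each sequence is written 5′ to 3′ on the strand of the gene.
Cdon, chr9:35451826-35452075, plus strand: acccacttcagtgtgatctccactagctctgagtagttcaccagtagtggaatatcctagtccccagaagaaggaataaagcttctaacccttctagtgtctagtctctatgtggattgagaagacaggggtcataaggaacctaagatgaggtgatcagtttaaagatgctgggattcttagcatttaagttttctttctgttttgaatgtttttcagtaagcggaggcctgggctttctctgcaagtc
Neo1, chr9:59036442-59036691, minus strand: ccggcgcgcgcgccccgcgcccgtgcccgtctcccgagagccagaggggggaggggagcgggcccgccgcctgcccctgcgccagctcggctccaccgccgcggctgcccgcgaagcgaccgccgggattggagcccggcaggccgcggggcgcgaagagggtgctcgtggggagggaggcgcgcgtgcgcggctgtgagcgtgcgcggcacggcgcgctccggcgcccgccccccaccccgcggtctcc
Dysf, upstream start, chr6:84008348-84008597, plus strand: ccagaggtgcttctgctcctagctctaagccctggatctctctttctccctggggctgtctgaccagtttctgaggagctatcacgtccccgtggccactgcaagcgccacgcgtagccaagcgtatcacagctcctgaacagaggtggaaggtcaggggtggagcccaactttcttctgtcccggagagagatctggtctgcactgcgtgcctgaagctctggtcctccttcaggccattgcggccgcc
Dysf, downstream start, chr6:84019136-84019385, plus strand: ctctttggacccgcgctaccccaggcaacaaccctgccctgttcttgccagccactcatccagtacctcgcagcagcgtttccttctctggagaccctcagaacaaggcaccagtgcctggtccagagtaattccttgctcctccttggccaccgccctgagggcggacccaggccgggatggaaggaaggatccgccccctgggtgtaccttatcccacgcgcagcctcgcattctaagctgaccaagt
Cav3, chr6:112459255-112459504, plus strand: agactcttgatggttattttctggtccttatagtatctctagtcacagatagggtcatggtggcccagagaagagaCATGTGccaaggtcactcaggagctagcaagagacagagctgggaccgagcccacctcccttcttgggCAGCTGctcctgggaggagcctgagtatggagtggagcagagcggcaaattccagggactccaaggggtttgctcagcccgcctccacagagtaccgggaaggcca

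The Cav3 window held 2 E-boxes, CATGTG at 174 bases and CAGCTG at 106 bases before the start. CANNTG was thus present in 1 of 7 windows, against 66.2% of all 32851 windows of the same length, and CAGCTG, a subset of CANNTG, in 1 of 7 against 13.0%. GGGCGG, the GC box, was present in 2 of 7 windows (Neo1 and the downstream start of Dysf) against 32.7% of all windows, and TATAAA in 0 of 7 against 12.4%. The windows of Cdon and Neo1 held 42.8% and 83.2% G and C. Each window lies before an annotated start, a gene can have other starts, and which start these cells used was not tested. No window of Tmem8c, Gm7325 or Boc is printed.

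Compared per kilobase of exon, the fusogen Tmem8c was the most abundant of the 9 transcripts and Dysf the least. Over the 12 libraries Tmem8c averaged 61.6 CPM per kilobase, followed by Cdon at 44.8, Gm7325 at 42.3, Kirrel at 37.5, Myof at 32.4, Cav3 at 24.5, Neo1 at 14.9, Boc at 11.7 and Dysf at 3.19 CPM per kilobase. The order differed between the groups at its top. In old knockout libraries Cdon (46.1 ± 10.02 CPM per kilobase) ranked above Tmem8c (41.6 ± 16.9), but their ranges overlapped, and so did those of each pair of neighbours from Cdon down to Boc. In old wild-type libraries Tmem8c (80.6 ± 9.97 CPM per kilobase) lay apart from the next gene, Gm7325 (45.1 ± 11.95), and Cdon was the fifth at 31.0 ± 3.51. In young knockout and young wild-type libraries Tmem8c came first and Cdon second, with overlapping ranges. Dysf was last in all 4 groups and did not overlap Boc, the next gene up, in any of them.

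**Figure D1:**
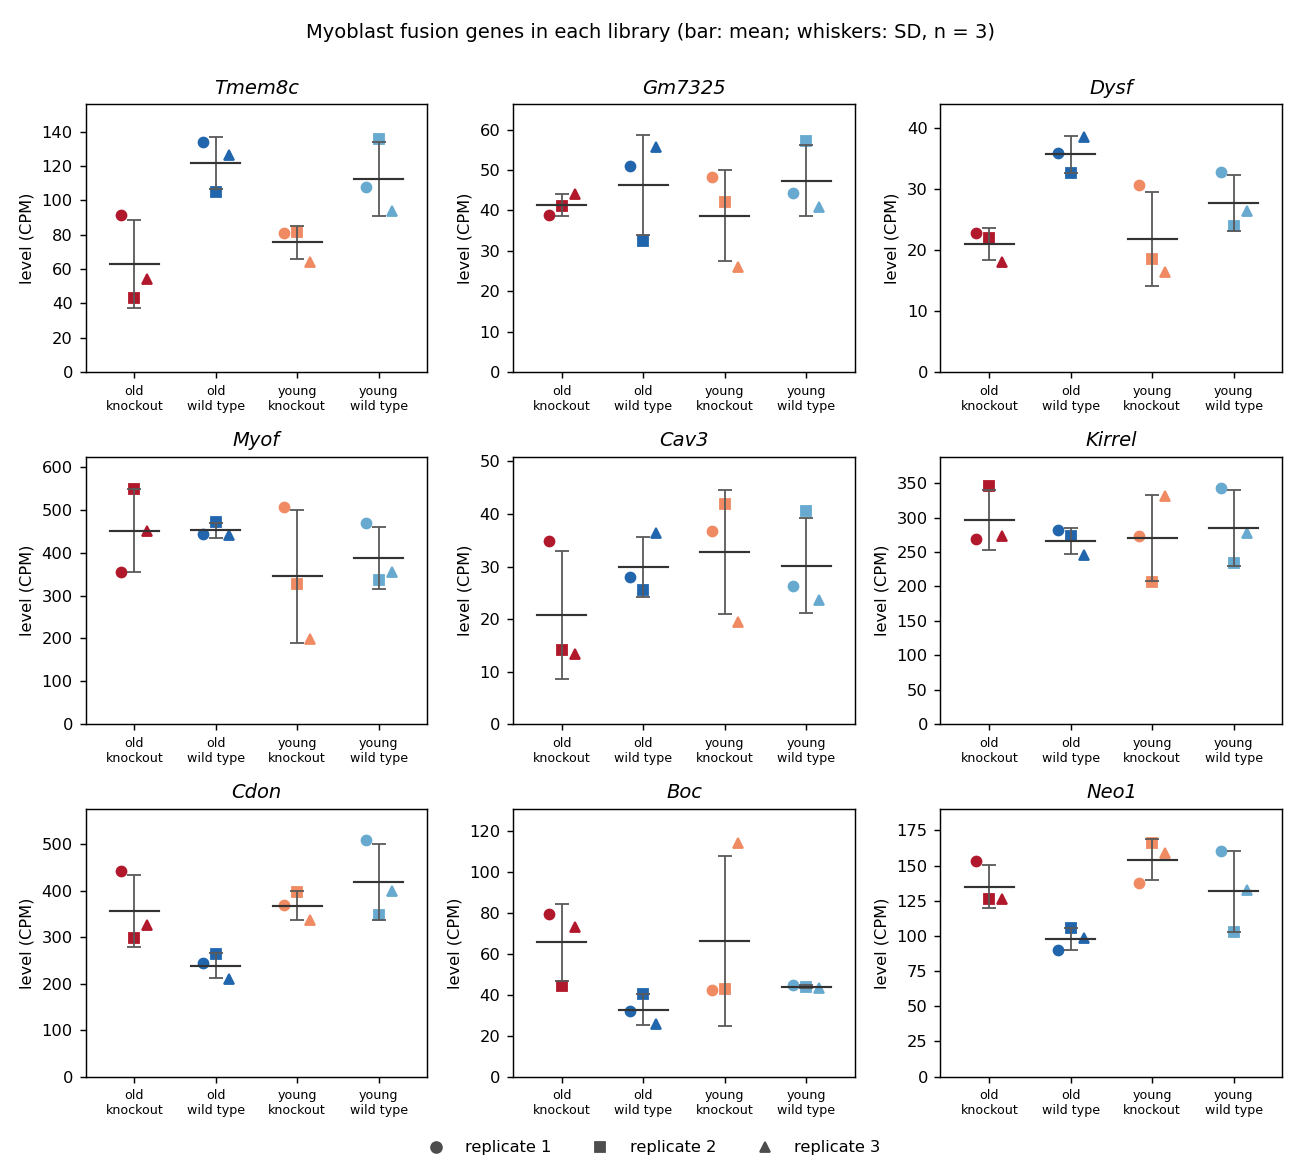
Level of each of the 9 fusion genes in CPM (vertical axis, from 0) in the 12 libraries, by group. Points are libraries, with the shape giving the replicate number, bars are means and whiskers are SD (n = 3). The 3 old knockout libraries lie below the 3 old wild-type libraries for Tmem8c and Dysf and above them for Cdon, Boc and Neo1.

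Tmem8c, which acts in both fusing cells and brings their membranes to the hemifusion stage, had 91.6, 43.0 and 54.0 CPM in old knockout libraries, against 134, 105 and 126.5 CPM in old wild-type libraries. In young mice it had 80.8, 81.4 and 64.4 CPM in knockout libraries, against 108, 136 and 93.6 CPM in wild-type libraries. At both ages every knockout library was below every wild-type library of that age, as for 20.4% of all tested genes in old and 19.6% in young mice, and the lowest values were those of old knockout libraries 2 and 3. In bulk samples such as these, fewer cells that express a gene and less RNA of it per cell cannot be told apart.

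Tmem8c was lower in old knockout than in old wild-type libraries by a log2 fold change of -0.96 ± 0.24 (SE; edgeR quasi-likelihood adjusted p = 0.02), 0.516 times the wild-type level. The difference was -0.57 ± 0.24 in young mice, where it did not pass the threshold (adjusted p = 0.108). In old mice the call was lost without old wild-type library 1 (adjusted p = 0.0708), old wild-type library 3 (0.0566), old knockout library 2 (0.0529) or old knockout library 3 (0.0867), and with the GC content and length offsets (-0.73, adjusted p = 0.0635). Without old knockout libraries 2 and 3 together, which leaves 1 old knockout library, the old difference shrank to -0.40. The young difference was -0.20 with the GC content and length offsets.

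Gm7325, a small membrane peptide that completes the opening of the fusion pore in the mouse, showed no such difference. It had 38.8, 41.2 and 44.2 CPM in old knockout and 50.9, 32.4 and 55.6 CPM in old wild-type libraries, and 48.2, 42.0 and 26.1 CPM in young knockout and 44.2, 57.2 and 40.7 CPM in young wild-type libraries. All groups overlapped, and its log2 fold change was -0.17 ± 0.23 between old knockout and old wild-type libraries (adjusted p = 0.646) and -0.27 ± 0.23 between young knockout and young wild-type libraries (adjusted p = 0.431).

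Because both fusogens are read in the same library, their ratio does not depend on the scaling between libraries. The ratio of Tmem8c to Gm7325 reads was 2.36, 1.04 and 1.22 in old knockout libraries, against 2.63, 3.24 and 2.27 in old wild-type libraries. It was 1.68, 1.94 and 2.47 in young knockout libraries, against 2.44, 2.38 and 2.30 in young wild-type libraries. Old knockout libraries 2 and 3 had the lowest ratios of all 12, while old knockout library 1 lay within the range of the old wild-type libraries.

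The ratio to Myog, which encodes myogenin, a transcription factor of differentiating myoblasts that acts on the Tmem8c gene, was set beside this. Tmem8c reads per Myog read were 0.118, 0.0826 and 0.0939 in old knockout libraries, against 0.167, 0.192 and 0.153 in old wild-type libraries, without overlap. The ratio was 0.121, 0.110 and 0.127 in young knockout libraries, against 0.142, 0.131 and 0.126 in young wild-type libraries, with an overlap of the ranges. Dysf reads per Myog read also did not overlap between the old groups, at 0.02945, 0.04235 and 0.03131 in knockout and 0.04464, 0.0596 and 0.04647 in wild-type libraries. The ratios of Gm7325, Cav3, Kirrel and Myof to Myog overlapped there, and those of Cdon, Boc and Neo1 were not computed. By CPM, 20.4% of all tested genes were lower in every old knockout than in every old wild-type library. No such share was computed for ratios, and the part of GC dependence in them was not tested. Myog itself averaged 623.5 ± 134 CPM in old knockout and 726 ± 156 CPM in old wild-type libraries (adjusted p = 0.504).

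**Figure D2:**
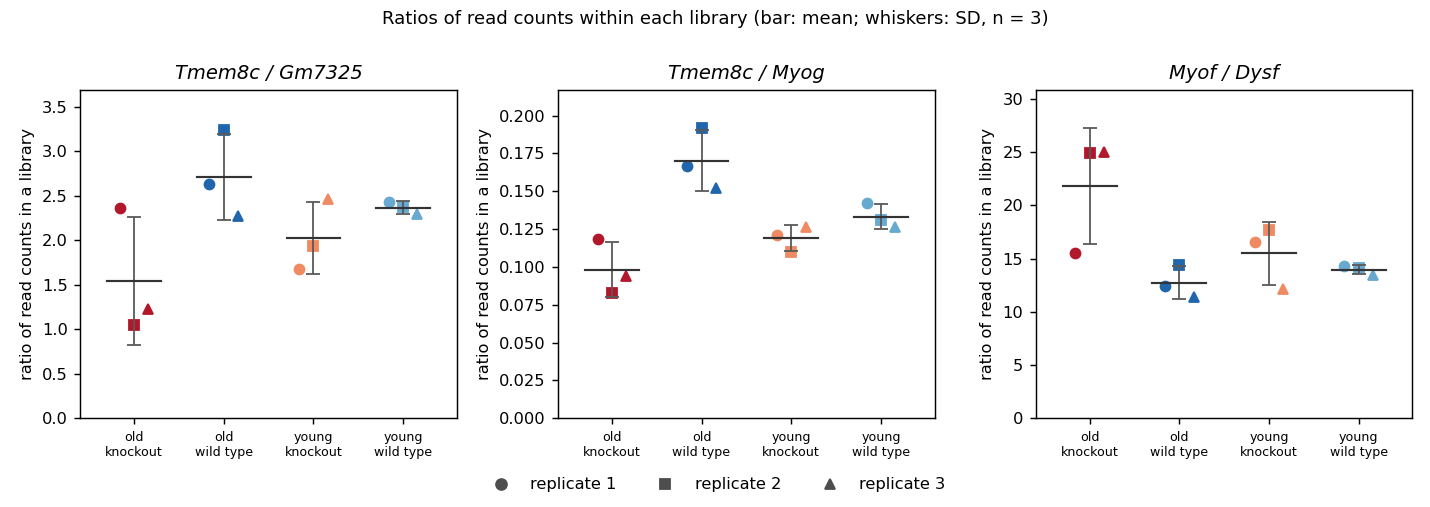
Ratio of read counts within each library (vertical axes, from 0) for Tmem8c to Gm7325, Tmem8c to Myog and Myof to Dysf, by group. Points are libraries, bars are means and whiskers are SD (n = 3). Old knockout libraries 2 and 3 stand lowest for Tmem8c to Gm7325 (1.04 and 1.22) and highest for Myof to Dysf (24.9 and 25.0).

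Of the 2 ferlins, large membrane-anchored proteins with calcium-binding C2 domains, Dysf differed with genotype in old mice and Myof did not pass the test. Dysf, best known for resealing torn muscle membranes, had 22.8, 22.0 and 18.0 CPM in old knockout libraries, against 35.8, 32.6 and 38.6 CPM in old wild-type libraries. In young mice it had 30.6, 18.5 and 16.4 CPM in knockout libraries and 32.8, 23.9 and 26.3 CPM in wild-type libraries. The old groups did not overlap, and young knockout library 1 reached the young wild-type range while the other young knockout libraries lay below it.

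The Dysf difference between old knockout and old wild-type libraries was -0.76 ± 0.21 on the log2 scale (edgeR quasi-likelihood adjusted p = 0.03). Leaving out any of the 6 old libraries ended the call, with an adjusted p of 0.0835, 0.0576 and 0.0914 without old wild-type libraries 1, 2 and 3, and of 0.0596, 0.0597 and 0.133 without old knockout libraries 1, 2 and 3. With the GC content and length offsets it was -0.50 (adjusted p = 0.123). In young mice the difference was -0.33 ± 0.21 (adjusted p = 0.297), and -0.67 (adjusted p = 0.0279) without young knockout library 1. Exons of Dysf overlap 2 annotated genes on the opposite strand, Gm15475 over 352 bases and Gm33024 over 105 bases, and no source used here states the strand setting of the counting, so reads of these genes could be included.

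Myof, which in the mouse is needed for the growth of large myotubes, had 355, 549 and 450.0 CPM in old knockout libraries, against 444, 471 and 440.5 CPM in old wild-type libraries. It had 507, 328 and 199.5 CPM in young knockout libraries, against 469, 337 and 355 CPM in young wild-type libraries. The knockout libraries scattered on both sides of the wild-type ones at both ages, and the log2 fold changes were -0.001 ± 0.27 in old mice (adjusted p = 0.998) and -0.16 ± 0.27 in young mice (adjusted p = 0.699). Myof reads outnumbered Dysf reads by 15.5, 24.9 and 25.0 times in old knockout libraries, against 12.4, 14.5 and 11.4 times in old wild-type libraries, without overlap. In young mice the ratio was 16.6, 17.7 and 12.2 in knockout libraries and 14.3, 14.1 and 13.5 in wild-type libraries. The transcripts of Myof and Dysf hold 48.9% and 55.5% G and C. The part of GC dependence, which differed between knockout and wild-type libraries, in this ratio was not tested. By CPM, 21.6% of all tested genes were higher in every old knockout than in every old wild-type library. No such share was computed for ratios.

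Cav3, which shapes the caveolae of muscle fibres, and Kirrel, a relative of the surface proteins that mark founder cells for fusion in Drosophila, passed the test in no comparison. Cav3 had 34.9, 14.1 and 13.4 CPM in old knockout libraries, against 27.9, 25.5 and 36.3 CPM in old wild-type libraries. Old knockout libraries 2 and 3 were the lowest of the 12 and old knockout library 1 lay within the old wild-type range. The difference was -0.52 ± 0.39 on the log2 scale (edgeR quasi-likelihood adjusted p = 0.375) and became -1.09 (adjusted p = 0.0419) without old knockout library 1. It had the opposite sign, 0.23, without old knockout libraries 2 and 3, which leaves 1 old knockout library.

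In young mice Cav3 had 36.8, 41.9 and 19.4 CPM in knockout and 26.3, 40.6 and 23.7 CPM in wild-type libraries. Kirrel ranged from 269 to 346 CPM in old knockout and from 245 to 281 CPM in old wild-type libraries, and from 206 to 332 CPM in young knockout and from 234 to 343 CPM in young wild-type libraries. Its log2 fold changes lay between -0.10 and 0.15 in the 4 comparisons of groups.

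The surface receptors Cdon, Boc and Neo1 form complexes in myoblasts that promote differentiation. Cdon and Boc also bind Hedgehog ligands as co-receptors, and Neo1 binds netrins and repulsive guidance molecules. Cdon had 444, 298 and 325 CPM in old knockout libraries, against 244, 263 and 209.6 CPM in old wild-type libraries. It had 369.9, 398 and 337 CPM in young knockout libraries, against 509, 347 and 401 CPM in young wild-type libraries. The 3 old wild-type libraries were the lowest of the 12, and the other 3 groups overlapped each other.

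Cdon was lower in old than in young wild-type libraries by -0.81 ± 0.18 on the log2 scale (edgeR quasi-likelihood adjusted p = 0.0468), 0.57 times the young level, and was the 1 of 9 fusion genes called between these groups. Across all 13540 genes tested, 1.06% were called in this comparison, 0.805% as lower in old cells. In every old wild-type library Cdon and Boc were below every young wild-type one, as were 13.8% of all tested genes. The adjusted p of Cdon was close to the threshold. It was 0.145, 0.125 and 0.221 without old wild-type libraries 1, 2 and 3, 0.186 and 0.106 without young wild-type libraries 1 and 3, 0.0679 without old knockout library 3 and 0.0592 without young knockout library 2, while the log2 fold change kept between -0.89 and -0.65.

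Between old knockout and old wild-type libraries Cdon was higher by 0.58 ± 0.18 on the log2 scale (edgeR quasi-likelihood adjusted p = 0.0415). This comparison and the ageing comparison share the old wild-type libraries, so the 2 differences are not independent. Without old wild-type libraries 1, 2 and 3 the adjusted p was 0.103, 0.0715 and 0.144, without old knockout libraries 1 and 3 it was 0.138 and 0.079, and without young wild-type library 3 it was 0.0576. With scaling by library size alone, under which the median of all tested genes is -0.26, the Cdon difference was 0.32 (adjusted p = 0.262). Within the knockout, Cdon differed by -0.05 ± 0.18 between old and young libraries (adjusted p = 0.958). The difference of the 2 age effects was 0.76 ± 0.25 on the log2 scale, with an unadjusted p of 0.00907 and an adjusted p of 0.376 in edgeR.

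Neo1 had 153, 126.0 and 126.1 CPM in old knockout libraries, against 89.95, 105 and 98.4 CPM in old wild-type libraries. It had 138, 166 and 159 CPM in young knockout libraries, against 160.1, 103 and 132.5 CPM in young wild-type libraries. The old groups did not overlap, but the difference of 0.46 ± 0.16 missed the threshold (edgeR quasi-likelihood adjusted p = 0.0587). It passed in a fit of only the 2 groups (adjusted p = 0.0193) and without young wild-type library 1 (0.0399), young wild-type library 2 (0.0332) or young knockout library 3 (0.0384).

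Neo1 differed by -0.43 ± 0.16 between old and young wild-type libraries (adjusted p = 0.216), and its profile over the 12 libraries was the closest to that of Cdon among the 9 genes, with a root mean square difference of 0.20 between their centred log2 CPM values. The ratio of Cdon to Neo1 reads lay between 2.37 and 2.90 in old knockout and between 2.13 and 2.71 in old wild-type libraries. It lay between 2.13 and 2.69 in young knockout and between 3.02 and 3.38 in young wild-type libraries, the highest of the 4 groups.

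Boc was the most variable of the 3 receptors. It had 79.6, 44.4 and 72.9 CPM in old knockout libraries, against 31.9, 40.6 and 25.5 CPM in old wild-type libraries. It had 42.1, 42.7 and 114 CPM in young knockout libraries, against 44.8, 43.97 and 43.1 CPM in young wild-type libraries. The old groups did not overlap, and a single young knockout library stood far above its group. The difference between old knockout and old wild-type libraries was 1.001 ± 0.37 on the log2 scale (edgeR quasi-likelihood adjusted p = 0.0856), with an adjusted p of 0.0245 in DESeq2, 0.0258 in a fit of only the 2 groups and 0.00286 without young knockout library 3.

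Markers of Schwann cells, the glia of peripheral nerve, were highest in the libraries in which Boc was highest. The summed level of the 6 markers was 424, 215 and 400 CPM in old knockout libraries, against 203, 185 and 187 CPM in old wild-type libraries, and 113, 155 and 866 CPM in young knockout libraries, against 227, 318 and 366 CPM in young wild-type libraries. Among the libraries with Boc between 42.1 and 44.8 CPM, the sum ran from 113 to 366 CPM. None of the 6 was at 0 in any library and 0 of 6 passed the edgeR test between old knockout and old wild-type libraries. The part of these cells in the Boc values was not tested.

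**Figure D3:**
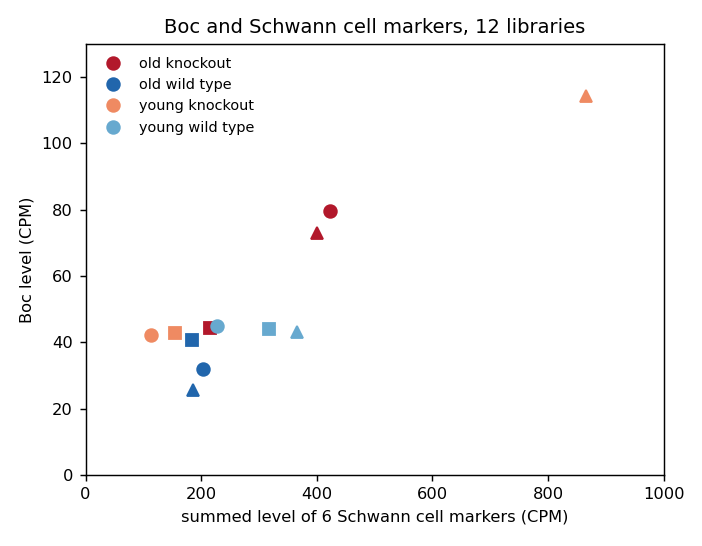
Boc level (CPM, vertical axis) against the summed level of 6 Schwann cell markers (CPM, horizontal axis) in the 12 libraries, both axes from 0. Circles, squares and triangles are replicates 1, 2 and 3 of each group. The 3 libraries with the highest Boc (114, 79.6 and 72.9 CPM) also have the 3 highest marker sums (866, 424 and 400 CPM).

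Taking the 9 genes by comparison, 3 of 9 were called between old knockout and old wild-type libraries, Tmem8c and Dysf lower and Cdon higher, while 16.7% of all tested genes were called there. With 9 genes and this background, the count is given as a description of these genes and not as particular to them. In the same comparison 2 of 9 genes were lower in every knockout library than in every wild-type library and 3 of 9 were higher in every one, against 20.4% and 21.6% of all tested genes. The median log2 fold change of the 9 was -0.001, and that of all tested genes was -0.01. Without old wild-type library 2 and old knockout library 3, 0 of 9 were called, and 3 of all 13804 tested genes. Without old knockout libraries 2 and 3, which leaves 1 old knockout library, Tmem8c, Dysf and Cdon were at -0.40, -0.64 and 0.90.

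Between young knockout and young wild-type libraries 0 of 9 genes passed the edgeR, DESeq2 or limma-voom test, with 1 (Tmem8c) at an unadjusted p under 0.05 in edgeR, while 20.9% of all tested genes were called. The median log2 fold change was -0.16 over the 9 genes and -0.02 over all tested genes. Between old and young knockout libraries 0 of 9 passed in any of these 3 tests and 0 had an unadjusted p under 0.05 in edgeR, with 0.0148% of all tested genes called. The log2 fold changes there ran between -0.66 ± 0.39 for Cav3 and 0.39 ± 0.27 for Myof. The age effect differed between genotypes for 0 of 9 genes in the 3 tests, with 1 (Cdon) at an unadjusted p under 0.05 in edgeR and 0.0148% of all tested genes called. In wild-type cells the median age difference was -0.03 over the 9 genes and 0.01 over all tested genes, and log2 fold changes other than that of Cdon lay between -0.43 (Boc and Neo1) and 0.36 ± 0.21 (Dysf, adjusted p = 0.474).

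**Figure D4:**
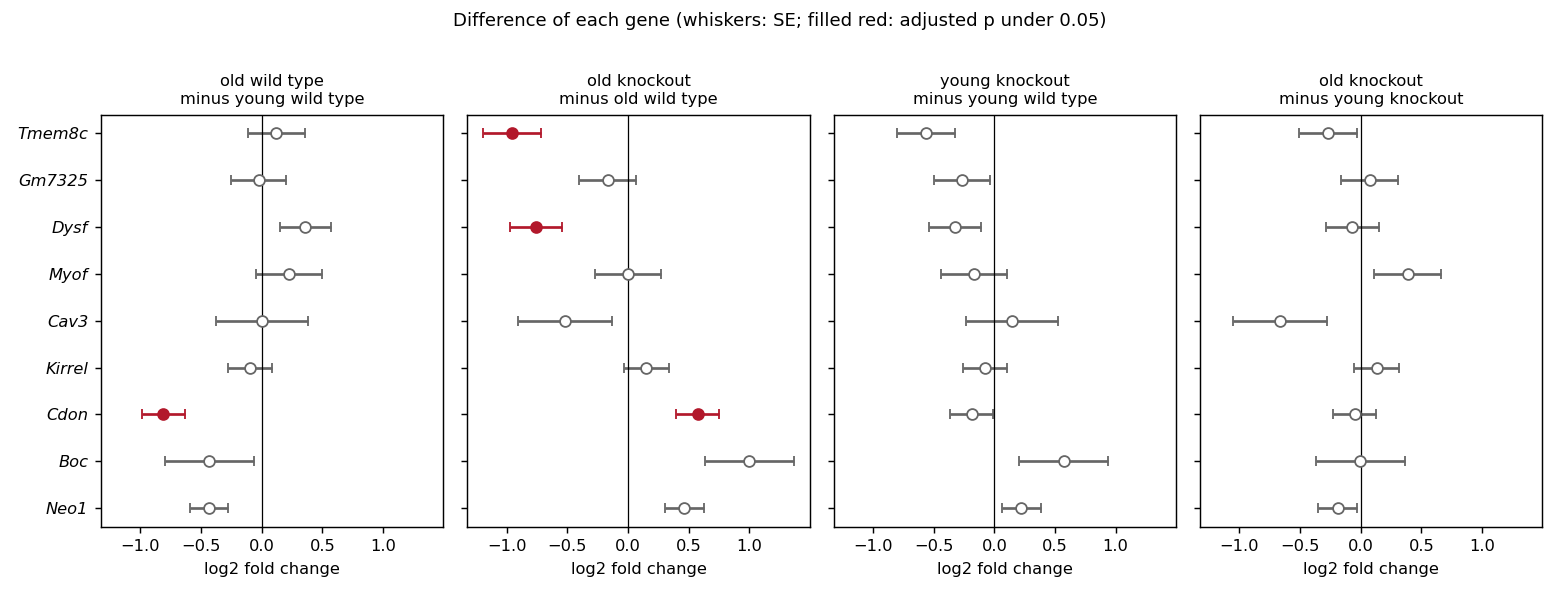
Log2 fold change of the 9 fusion genes (horizontal axes) in 4 comparisons. Points are edgeR estimates, whiskers are SE, and filled red points have an adjusted p under 0.05. Tmem8c and Dysf (lower) and Cdon (higher) pass between old knockout and old wild-type libraries, and Cdon (lower) between old and young wild-type libraries.

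**Figure D5:**
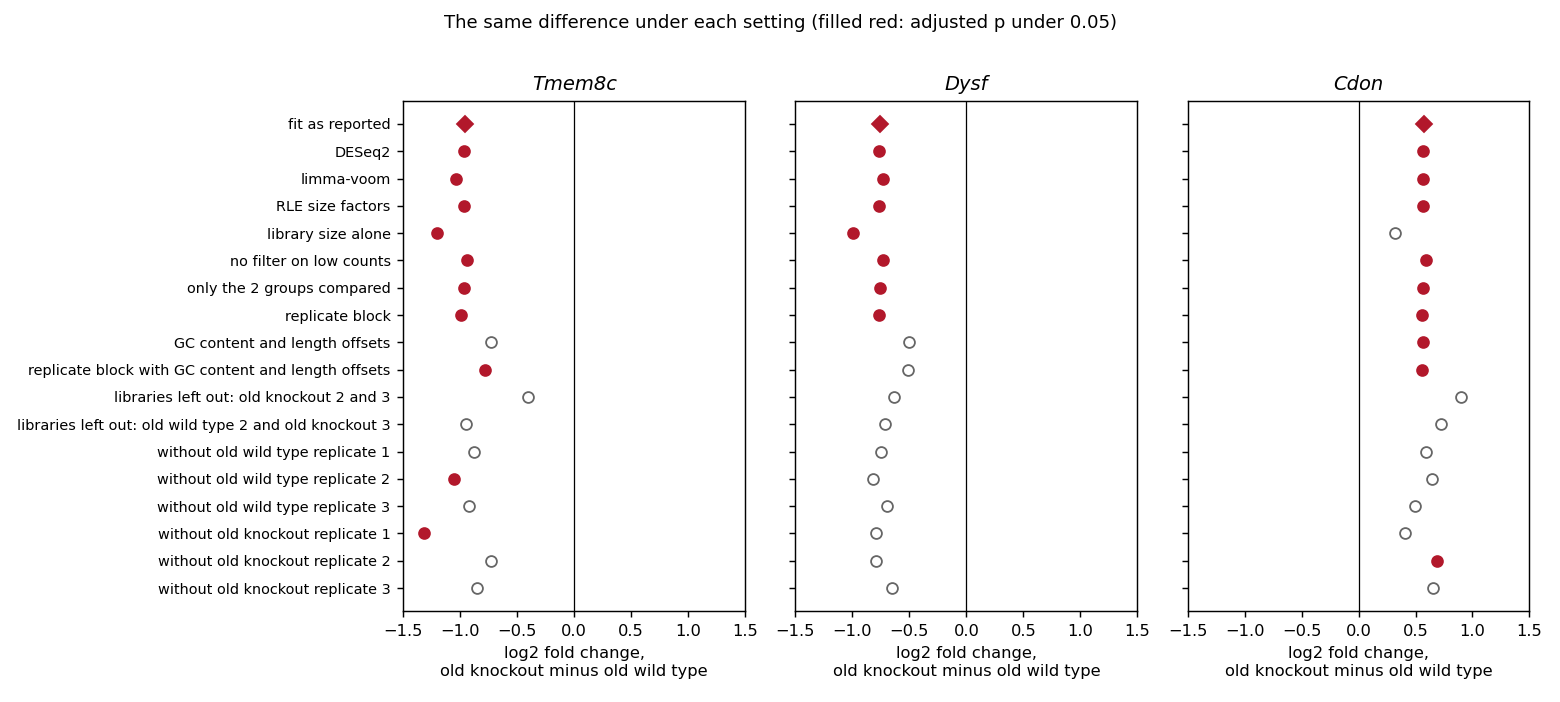
Log2 fold change of Tmem8c, Dysf and Cdon between old knockout and old wild-type libraries (horizontal axes) under the fit as reported and under each other setting that changes the tool, the scaling or the libraries of these groups. Filled red symbols have an adjusted p under 0.05. Every estimate keeps its sign, while Dysf passes in no fit that leaves out an old library.

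Genes whose profile over the 12 libraries was closest to each fusion gene were listed by the root mean square difference of centred log2 CPM, over 11811 genes compared. For Tmem8c these were Myl4 at 0.18, Tpm2 at 0.20 and Hfe2 at 0.20, of which Myl4 and Tpm2 encode sarcomere proteins. For Cav3 they included Actc1 at 0.18 and Unc45b at 0.18, which encode an actin and a myosin chaperone. For Cdon they were Stxbp4, Dzip1 and Spats2l at 0.16 to 0.17, and for Neo1 C030046E11Rik, Mtap2 and Lats1 at 0.09 to 0.12. Boc came closest to Gpr155, Slco2b1 and Serping1 at 0.19 to 0.21, the largest distances of the 9 genes. Boc also varied most of the 9 around its own mean, with a root mean square of 0.56, against 0.29 for Neo1 and 0.21 for Kirrel, the least variable. Dysf came closest to Pick1, Trim25 and Tgfb1, Gm7325 to Chchd5, Pkig and Tysnd1, Myof to Slc9a9 and Chfr, and Kirrel to Parva, 4831426I19Rik and Musk.

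Other genes named for a part in myoblast fusion were read from lists written beside the 9. Of 44 tested genes of the wider fusion machinery, which holds adhesion molecules, actin regulators and membrane-binding proteins, 8 were higher and 2 lower in old knockout than in old wild-type libraries, against 9.52% higher and 7.21% lower among all tested genes. The median of the list was 0.20. Higher were Cd164, a sialomucin of the myoblast surface (332 ± 49.3 against 190 ± 7.84 CPM, log2 fold change 0.80), Nckap1, a subunit of the WAVE complex that drives actin branching (0.79), and Ppp3r1, a regulatory subunit of calcineurin (0.70). Lower was Trim72, a membrane repair protein of muscle (31.1 ± 12.5 against 60.1 ± 5.70 CPM, -0.94). With the GC content and length offsets the counts were 8 higher and 0 lower, and Ppp3r1 was at 0.30 (adjusted p = 0.181). With scaling by library size alone the counts were 1 higher and 5 lower, where 359 of all tested genes were higher and 1827 lower. Without old wild-type library 2 and old knockout library 3 they were 0 higher and 0 lower, where 1 of all tested genes was higher and 2 lower.

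In young mice 6 of the 44 were higher and 7 lower in knockout than in wild-type libraries, with a list median of 0.26, and all tested genes gave 10.9% higher and 10% lower. Cd164 (1.15), Nckap1 (0.95) and Ppp3r1 (0.81) were higher again, and Cdh15, the cadherin of satellite cells and myoblasts, was lower (771 ± 79.1 against 1180 ± 128 CPM, -0.61). With the GC content and length offsets 6 were higher and 0 lower, Cdh15 was at -0.12 (adjusted p = 0.603) and Ppp3r1 at 0.36 (0.129). With scaling by library size alone 3 were higher and 5 lower, and 865 of all tested genes were higher and 1278 lower. Between old and young wild-type libraries 0 of 44 passed in edgeR, with 8 at an unadjusted p under 0.05. DESeq2 called 1 as lower, beside 304 of all 13112 genes it tested. Anxa6 and Itgb1, the most abundant genes of the list over the 12 libraries together, averaged 1018 and 786.5 CPM in old and 1196 and 855 CPM in young wild-type libraries.

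Of 26 tested partners and signalling genes of Cdon, Boc and Neo1, Rgma, a glycosylphosphatidylinositol-anchored ligand of Neo1, was lower in 3 comparisons. It averaged 38.7 ± 14.0 CPM in old knockout and 83.1 ± 7.55 CPM in old wild-type libraries (log2 fold change -1.12 ± 0.21, edgeR quasi-likelihood adjusted p = 0.00593). It averaged 65.4 ± 7.09 CPM in young knockout and 161 ± 12.8 CPM in young wild-type libraries (-1.31 ± 0.21, adjusted p = 0.00155), and the age difference in wild-type cells was -0.96 ± 0.21 (adjusted p = 0.0426). These comparisons share groups. With the GC content and length offsets the 3 differences were -0.79 (adjusted p = 0.0332), -0.84 (0.0256) and -0.84 (0.0641).

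Sufu, an intracellular inhibitor of Hedgehog signalling, was lower in knockout libraries at both ages, by -0.96 in old mice (11.9 ± 2.73 against 23.6 ± 2.18 CPM) and by -1.04 in young mice. With the offsets these differences were -0.69 (adjusted p = 0.0529) and -0.72 (0.0493). In young mice Tcf3, which encodes dimer partners of the myogenic factors, was also lower (-0.69) and Spag9, a scaffold for p38 kinase that binds Cdon, higher (0.51), but with the offsets they were at -0.18 (adjusted p = 0.419) and 0.18 (0.336). In all, 0 of 26 were higher and 2 lower in old mice, and 1 higher and 3 lower in young mice, beside 9.52% higher and 7.21% lower among all tested genes in old and 10.9% and 10% in young mice. With scaling by library size alone 0 were higher and 5 lower in old mice. Without old wild-type library 2 and old knockout library 3 the count there was 0, where 3 of all 13804 tested genes were called.

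Of 8 tested ferlin-related and membrane repair genes, Ahnak, a giant scaffold protein that binds dysferlin, was higher in knockout libraries at both ages, at 10600 ± 685 against 5427 ± 388 CPM in old mice (0.97) and at 10190 ± 2125 against 5093 ± 1701 CPM in young mice (1.001). Trim72, which is also on the list above, was lower in old mice, and the calcium-binding Anxa2 was lower in young mice (-0.78). Those were the 1 higher and 1 lower gene of each comparison. Among all tested genes 9.52% were higher and 7.21% lower in old mice, and 10.9% and 10% in young mice. With the offsets Ahnak kept 0.90 and 0.82, while Trim72 was at -0.64 (adjusted p = 0.154) and Anxa2 at -0.57 (0.0695).

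Of 9 tested caveola genes 0 passed in edgeR in either knockout comparison, with 2 in old and 3 in young mice at an unadjusted p under 0.05 and 1 called in each by DESeq2, while limma-voom called 0 and 1. Among all tested genes edgeR called 16.7% in old and 20.9% in young mice. With the GC content and length offsets edgeR called 1 in each, Prkcdbp as higher in old mice (0.52, adjusted p = 0.0178) and Sdpr as lower in young mice (-0.69, adjusted p = 0.00812), both cavins. Cav1, the caveolin of most other cell types, averaged 1143 ± 171 CPM in old knockout and 863 ± 42.5 CPM in old wild-type libraries (adjusted p = 0.12). Sdpr was lower in old than in young wild-type libraries, at 270 ± 22.0 against 468 ± 43.2 CPM (-0.79 ± 0.15, adjusted p = 0.0264). It was the 1 of 9 caveola genes called there, beside 1.06% of all tested genes.

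Of 16 tested regulators of the fusogens and of fusion, 2 were lower in old and 3 in young knockout libraries and 0 higher, beside 7.21% and 10% lower among all tested genes. In old mice 5 were lower with scaling by library size alone. There was 1 lower with the GC content and length offsets or without old wild-type library 2 and old knockout library 3. Mef2d, a transcription factor of muscle genes, was lower at both ages, by -1.5 in old and -1.03 in young mice, and with the GC content and length offsets by -1.25 and -0.72. Mapk3, the kinase ERK1, was lower by -0.54 and -0.57, and Mkl1, a coactivator of serum response factor, by -0.81 in young mice. With the offsets Mapk3 was at -0.26 and -0.13 (adjusted p = 0.306 and 0.643) and Mkl1 at -0.39 (0.211). In the comparison of old with young knockout libraries and for the difference of age effects, 0 genes of these 5 lists passed in edgeR. Between 1 and 4 genes of a list had an unadjusted p under 0.05 in the first of these and between 0 and 6 in the second. No share of all tested genes was computed at that threshold, for these counts or the others given at it. DESeq2 called 1 gene of the wider fusion machinery and 2 of the Cdon, Boc and Neo1 partners in the first, beside 136 of all 13112 genes it tested. Between old and young wild-type libraries 0 of 8 membrane repair genes and 0 of 16 regulators passed in edgeR, DESeq2 or limma-voom, with 0 and 1 at an unadjusted p under 0.05 in edgeR.

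Markers of other cells and stages also differed between old knockout and old wild-type libraries, where 9.52% of all tested genes were higher and 7.21% lower. Of 16 markers of differentiating myoblasts, which include Myog and Mef2c of the regulator list, 4 were lower and 0 higher in old knockout than in old wild-type libraries, with a summed level of 10900 to 16190 CPM against 11150 to 13370 CPM. The median log2 fold change of these 16 was -0.45, against -0.01 over all tested genes. The largest part of the sum was Ttn, at 7879 ± 1334 CPM in old knockout and 6044 ± 1102 CPM in old wild-type libraries. Of 13 tested macrophage markers 4 were lower and 0 higher, and their sum was 21.4 to 98.8 CPM in old knockout and 166 to 193 CPM in old wild-type libraries. Of 7 tendon markers 5 were higher, with a sum of 99.5 to 922 CPM against 39.4 to 52.7 CPM. Of 10 fibroblast markers 2 were higher, with a sum of 6339 to 10310 CPM against 5388 to 6520 CPM. Of 8 pericyte and smooth muscle markers 3 were higher, with a sum of 3064 to 3586 CPM against 2828 to 2911 CPM, and of 5 tested neutrophil markers 3 were higher, with a sum over 6 markers of 7.36 to 96.5 CPM against 2.59 to 7.26 CPM. Of 10 satellite cell markers 2, Itga7 and Heyl, were lower, with a sum of 4840 to 5530 CPM against 5152 to 5470 CPM. All 7 choroid plexus markers were lower, with a sum of 10.1 to 24.1 CPM against 109 to 3463 CPM, and Ttr was at 0 in all 6 knockout libraries. The tendon and choroid plexus lists were chosen with earlier results of these data known, so their counts only describe the libraries. In the old groups the other markers at 0 were Kera, a tendon marker, in old wild-type library 1, Pi16, a fibroblast marker, in old knockout library 3, and Slc4a5 and Kl, choroid plexus markers, in old knockout libraries 1 and 3. The part of these cells in the values of the fusion genes was not tested.

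Marker levels also differed between old and young wild-type libraries, the groups between which Cdon was called, where 0.258% of all tested genes were higher and 0.805% lower. Of 10 satellite cell markers 2 were lower in old cells, Pax7 (adjusted p = 0.0271) and Heyl (adjusted p = 0.0094, both edgeR), with a sum of 5152 to 5470 CPM against 5624 to 6441 CPM. Of 10 fibroblast markers 2 were lower, with a sum of 5388 to 6520 CPM against 9697 to 11900 CPM, and of 8 pericyte and smooth muscle markers 1 was lower, with a sum of 2828 to 2911 CPM against 3590 to 4423 CPM. Macrophage markers summed to 166 to 193 CPM in old and 28.0 to 57.1 CPM in young wild-type libraries, with 0 of 13 called in edgeR and 7 at an unadjusted p under 0.05. Tendon markers summed to 39.4 to 52.7 CPM in old and 91.1 to 192 CPM in young wild-type libraries, with 0 of 7 called in edgeR and 4 at an unadjusted p under 0.05. The part of these cells in the Cdon difference was not tested.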

How the data were processed

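RNA-seq was done on 12 libraries of mouse satellite cells in 4 groups of 3. The deposited files hold raw read counts per gene symbol, 1 file per library. Per the submitters' processing notes the tools named are TopHat, HTSeq and DESeq2 and the build is mm9, and per the labels' protocols ribosomal RNA was depleted and strand-marking libraries were built from total RNA. No source used here states the strand setting of the counting. The counter's summary lines, which are no genes, were left out: 32.2% to 70.8% of the reads aligned once lay outside genes, and 0.433% to 1.37% were ambiguous. Gene reads were 4193433 to 20337015 per library, and the shallowest libraries, young knockout 3 and old knockout 3, give the least precise values.

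The counts were filtered with filterByExpr, which left 13540 of 22310 genes, scaled by TMM and tested in edgeR 4.0.16 (R 4.3.3, robust quasi-likelihood fit, 1 mean per group over all 12 libraries), with Benjamini-Hochberg adjustment over the tested genes and a threshold of 0.05. Fold changes are log2, old minus young and knockout minus wild type. The code was tested on simulated data. DESeq2 1.42.0, limma-voom 3.58.1, RLE size factors, scaling by library size alone, no filter, a fit of only the 2 groups, a replicate block, offsets for GC content and length (GENCODE M21, available for 92.26% of symbols and 9 of 9 fusion genes), 2 sets of doubted libraries left out and each library left out in turn were alternatives. Exon lengths for levels per kilobase come from the same annotation, and promoter windows from RefSeq on GRCm38.p6, a build other than that of the counts. The 9 genes, the gene lists and the alternatives were chosen with earlier results of these data known, and list counts under other settings were added after seeing the data. All 9 genes are named. From each list up to 4 called genes with the largest fold changes are named, or the most abundant where none was called, and for likeness the 3 closest genes over 12 libraries, where genes needed an average log2 CPM above 1; some of these genes are not reported here.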

Additional observations from a re-analysis of the deposited data

How the results depend on the processing

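The signs of the called differences of Tmem8c, Dysf and Cdon were the same in every setting run, but their side of the threshold was not, and the cause was not tested. The number of fusion genes called between old and young wild-type libraries was 1, and 0 with RLE size factors, library size alone, the replicate block, or old wild-type library 2 and old knockout library 3 left out. Between old knockout and old wild-type libraries it was 3, and 5 in a fit of only the 2 groups, 1 with GC content and length offsets, and 0 without old wild-type library 2 and old knockout library 3. Leaving out 1 library at a time gave 0 to 1 in wild-type ageing, 0 to 5 between old knockout and old wild type, 0 to 1 between young knockout and young wild type, and 0 to 0 in knockout ageing and for the difference of age effects. Over all genes the same fits called 6 to 458 in wild-type ageing, where the fit as reported called 144. They called 779 to 3144 between old knockout and old wild type, and 1479 to 3140 between young knockout and young wild type. Over all genes the old knockout count was 2265, and 1331 with GC content and length offsets and 3 without old wild-type library 2 and old knockout library 3. The young knockout count was 2831, and 1160 with the offsets.

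Some differences changed sign, and not all of them were near 0 in the fit as reported. There Cav3 was -0.66 and Myof 0.39 in knockout ageing. Cav3 was -0.52 between old knockout and old wild type, and Boc 0.57 between young knockout and young wild type. In wild-type ageing Cav3 was -0.0006, and 0.0686 with limma-voom, 0.0082 with RLE, 0.0753 with library size alone, 0.0096 with only the 2 groups, 0.0436 with the replicate block, 0.0376 with the offsets, 0.0853 with block and offsets and 0.1202 without old wild-type 2 and old knockout 3, and Gm7325 was 0.0509 with library size alone and 0.1933 without those 2 libraries. Between old knockout and old wild type, Kirrel was -0.0921 with library size alone, Myof 0.0252 without the filter, 0.0077 with the replicate block and 0.0482 without old wild-type 2 and old knockout 3, and Gm7325 0.0647 with the offsets and 0.0691 with block and offsets. Between young knockout and young wild type, Gm7325 was 0.1863 and Kirrel 0.1132 with the offsets, and 0.1686 and 0.1154 with block and offsets. Without old knockout 2 and 3, which leaves 1 old knockout library, Cav3 was 0.2258 between old knockout and old wild type. In knockout ageing Myof was then -0.0186, Cav3 0.0178 and Cdon 0.2179. Leaving out single libraries gave ranges across 0. In wild-type ageing they were -0.1662 to 0.2541 for Cav3, -0.1796 to 0.1738 for Gm7325 and -0.2252 to 0.0585 for Kirrel. They were -0.1667 to 0.1715 for Myof between old knockout and old wild type. Between young knockout and young wild type they were -0.0083 to 0.8641 for Boc, -0.0046 to 0.4395 for Cav3, -0.2032 to 0.1401 for Kirrel and -0.5515 to 0.1543 for Myof, and in knockout ageing -0.2575 to 0.0623 for Cdon.

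The labels do not say that replicate numbers pair the samples, and with 3 libraries per group the following correlations cannot decide it. Of 18 same-number pairs of libraries, 3 had a correlation of deviations over 0.1 (-0.261 to 0.231), and 3 of 12 libraries correlated best with their own number. The block moved the Cdon age difference in wild type to an adjusted p of 0.0566 in edgeR. The lowest counts, 46 reads of Cav3 and 62 of Dysf, were in old knockout library 3, the library with the second fewest gene reads.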
